A study of Thermomyces lanuginosus with 4 samples.

Results

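A set of 149 of the 9704 gene IDs of Thermomyces lanuginosus, a thermophilic filamentous fungus, was abundant on cellulose and moderately higher there than on glucose. RNA had been measured in mycelium of strain P134 at 2 days of age, with Avicel, which is microcrystalline cellulose, or glucose as carbon source, and 2 libraries were made per carbon source. Both groups shared the strain, the age and the tissue, and no other agent or genotype is named in the labels. No label states that the paired libraries are separate cultures, so all spread given here may be technical. The sources used here give no culture medium or temperature.

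Levels are FPKM, fragments per kilobase of transcript and per 1000000 fragments mapped, as the authors deposited them. A gene was included when its ratio, the mean FPKM on Avicel plus 1 over the mean FPKM on glucose plus 1, was from 1.5 to below 4. It also needed a mean of at least 200 FPKM on Avicel, and its lower Avicel value had to exceed its higher glucose value. The choice rests on all 4 libraries, so the levels, ratios and separation of these genes are descriptions. Counts from a fit across all genes are given later as descriptions too and support nothing about them. Of the 9704 IDs, 484 reached 200 FPKM on Avicel. Among these 484, 36 had a ratio of 4 or more, 254 lay within 1.5-fold of equality and 45 were lower on Avicel by at least 1.5-fold.

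Cellulose is an insoluble polymer of glucose. Filamentous fungi that feed on it secrete cellobiohydrolases, endoglucanases, beta-glucosidases and oxidative enzymes, which together release cellobiose and glucose, and they take these sugars up with membrane transporters. Glucose in the medium commonly represses such genes in filamentous fungi, a response called carbon catabolite repression. Thermomyces lanuginosus is best known for secreting a heat-stable xylanase and a lipase. The deposited tables pair no gene name with an ID, and none of the 9704 IDs occurs in the RefSeq gene table of another strain, ATCC 200065. The genes are therefore described by their levels, and no role or sequence is attached to any of them.

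On Avicel the levels of these abundant genes spanned a wide range. In the first Avicel library their FPKM was between 197 and 5617 with a median of 415, and in the second between 207 and 5616 with a median of 419. In the first glucose library it was between 56.3 and 2774 with a median of 205, and in the second between 58.5 and 2970 with a median of 202. The medians of libraries of the same carbon source thus lay close together, and those on Avicel were about double those on glucose.

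**Figure D1:**
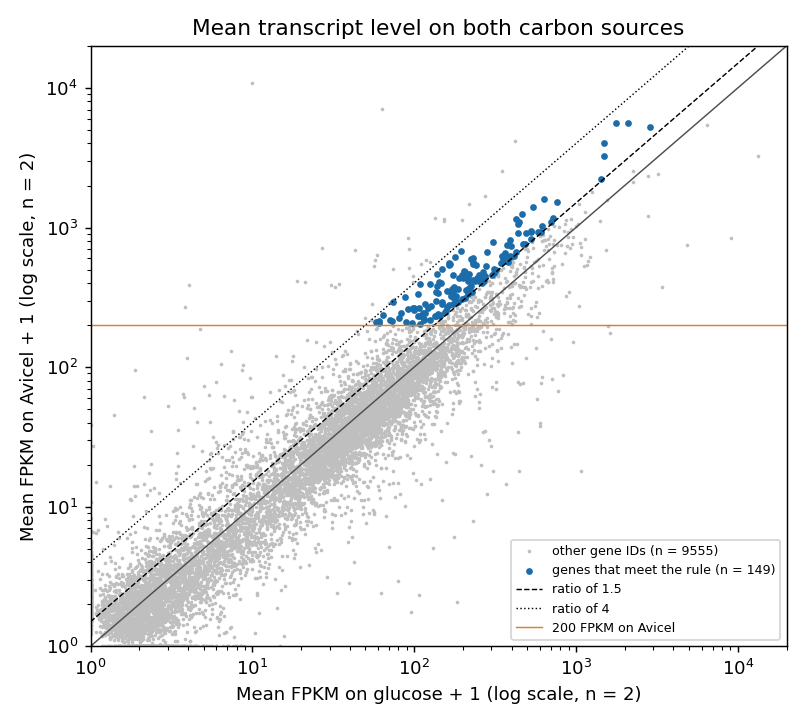
Mean FPKM plus 1 on Avicel (vertical, log scale) against that on glucose (horizontal, log scale), n = 2 libraries each, for all gene IDs in grey and the 149 chosen genes in blue. The blue genes lie between the lines for ratios of 1.5 and 4 and above 200 FPKM on Avicel, and 5 of them stand apart above 3000 FPKM.

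All of the set lay among the 500 most abundant IDs on Avicel, most of it below 1000 FPKM, and a few genes lay far above the rest. By mean level on Avicel, 69 genes had 200 to below 400 FPKM, 64 had 400 to below 1000, 11 had 1000 to below 3000 and 5 had more. The 5 highest made up 24.8% of the summed FPKM of the set on Avicel and 21.2% on glucose. On glucose 76 of the 149 genes also had at least 200 FPKM, 57 had 100 to below 200 and 16 had less than 100. A majority of the set was therefore already abundant by the same limit without cellulose.

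The most abundant gene of the set on Avicel was c7946_g3. It had 5617 and 5592 FPKM in the Avicel libraries and 1989 and 2193 FPKM in the glucose libraries. The Avicel libraries nearly coincided, the glucose libraries differed by 9.74%, and the groups did not overlap. Its mean (± SD, n = 2 each) was 5605 ± 17.9 FPKM on Avicel and 2091 ± 144 FPKM on glucose, a ratio of 2.68. Its log2(FPKM + 1) difference was 1.42 ± 0.08 (SE), and its rank by mean level among all IDs was 3 on Avicel and 12 on glucose.

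The gene with the largest gain in FPKM was c2284_g1, the next most abundant of the set. It had 5515 and 5616 FPKM in the Avicel libraries and 1714 and 1836 FPKM in the glucose libraries. Both Avicel values lay far above both glucose values. The mean (± SD, n = 2 each) was 5565 ± 71.1 FPKM on Avicel and 1775 ± 86.2 FPKM on glucose, a ratio of 3.13 and a gain of 3790 FPKM. Its log2(FPKM + 1) difference was 1.65 ± 0.07 (SE), and its rank was 4 on Avicel and 13 on glucose. The difference of c2284_g1 was 1.82 with median-of-ratios factors, 1.31 with equalized quantiles and 1.64 as TPM, a choice its SE likewise leaves out. In FPKM, c7946_g3 and c2284_g1 differed on Avicel by less than the spread between the Avicel libraries of c2284_g1.

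The other 3 genes above 3000 FPKM differed in how far they stood above their glucose level. The third had 5266 and 5217 FPKM on Avicel and 2774 and 2970 FPKM on glucose, a ratio of 1.82, and was the most abundant of the set on glucose. The fourth had 3946 and 4072 FPKM on Avicel and 1352 and 1607 FPKM on glucose, a ratio of 2.71, with glucose libraries that differed by 17.2%. The fifth had 3250 and 3252 FPKM on Avicel and 1448 and 1519 FPKM on glucose, a ratio of 2.19. With c7946_g3 and c2284_g1 these genes were 5 of the 10 most abundant of all IDs on Avicel, and 1 of the 5 was among the 10 most abundant on glucose.

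**Figure D2:**
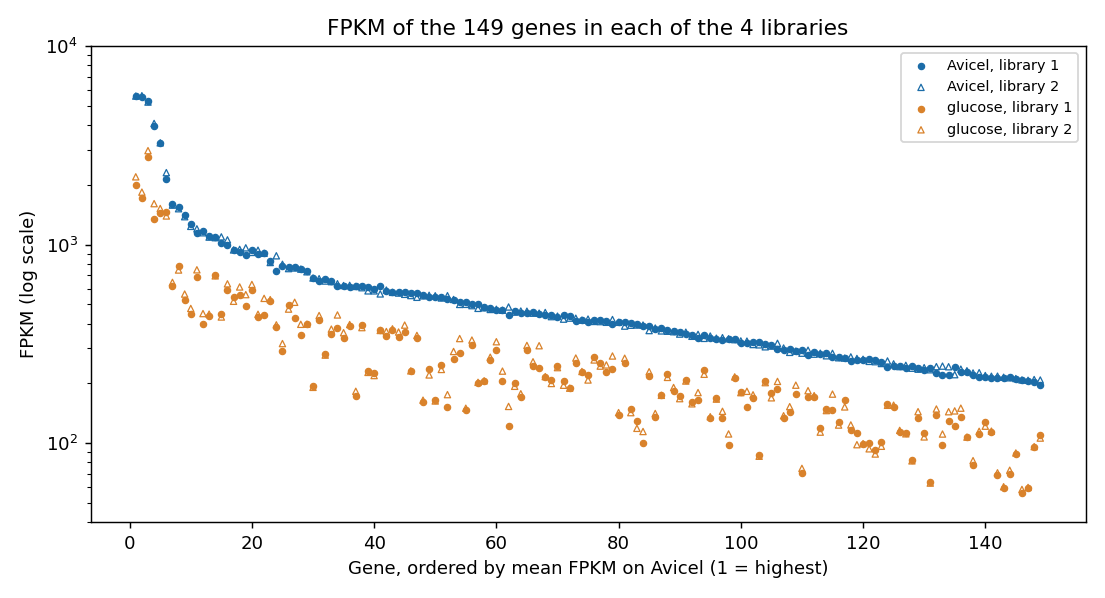
FPKM (vertical, log scale) of each of the 149 genes in each of the 4 libraries, with genes ordered by mean FPKM on Avicel (horizontal). Circles and triangles mark the first and second library, blue Avicel and orange glucose; every blue pair lies above its orange pair, as the rule requires, by a distance that varies from gene to gene.

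The ratios filled the allowed range unevenly. A ratio from 1.5 to below 2 was found for 75 genes, from 2 to below 3 for 56 and from 3 to below 4 for 18, with a median of 1.99 and quartiles of 1.65 and 2.52. The gene with the highest ratio, 3.94, had 296 and 284 FPKM on Avicel and 71.1 and 74.7 FPKM on glucose. The gene with the lowest glucose level had 208 FPKM in both Avicel libraries and 56.3 and 58.5 FPKM on glucose, a ratio of 3.58, and its rank was 465 on Avicel and 2364 on glucose. The median ratio was 2.12 among genes of 200 to below 400 FPKM on Avicel, 1.81 from 400 to below 1000 and 2.40 from 1000 to below 3000.

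The limits of the set cut through a continuous range of values. The lowest ratio inside was 1.503 and the nearest below the limit, in a gene that met the other conditions, was 1.497. Ratios from 1.5 to below 1.6 were found for 24 genes of the set, and 28 abundant genes with separate libraries had ratios from 1.4 to below 1.5. At the upper limit the nearest values were 3.94 inside and 4.02 outside. The lowest mean level on Avicel inside was 203 FPKM and the nearest outside was 199 FPKM. The condition on separate libraries removed no gene that met the other conditions.

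Together the 149 genes, 1.54% of all IDs, held a large part of the summed FPKM on Avicel, which the limit of 200 FPKM favours. Their share was 17.23% and 17.26% in the Avicel libraries and 8.25% and 8.40% in the glucose libraries. The libraries of each carbon source were close to each other, with a mean (± SD, n = 2 each) of 17.2% ± 0.03 on Avicel and 8.33% ± 0.11 on glucose. Without the 5 highest genes the share was 12.96% on Avicel and 6.56% on glucose. The summed FPKM of the set was 2.08 times as high on Avicel as on glucose, and 1.99 times without these 5 genes.

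The set also made up a large part of all FPKM gained on Avicel, which its limits on level and ratio favour. Over the 3738 IDs with a higher mean on Avicel the gains summed to 138903 FPKM, and the 149 genes held 35.7% of that sum. The 36 abundant genes with a ratio of 4 or more held 29.5% of it. Their share of the summed FPKM was 8.07% on Avicel and 0.643% on glucose, a gap that their ratio of 4 or more imposes. FPKM values are relative to the whole library, and a gain in one gene lowers the values of others.

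The place of these genes among all genes moved accordingly. Of the 100 most abundant IDs on Avicel 31 belonged to the set, against 12 of the 100 most abundant on glucose. The median rank of the set was 206 on Avicel and 468 on glucose. All 149 genes ranked higher on Avicel, an outcome that the choice of the genes favours.

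In the fit across all genes, limma applied to log2(FPKM + 1) with Benjamini-Hochberg adjustment, all 149 genes were called higher on Avicel at an adjusted p below 0.05. Over all 8261 genes tested 23.1% were called higher, and over the 484 genes of at least 200 FPKM on Avicel 62.2%. Non-overlapping libraries, with the Avicel values higher, were found in 30.7% of the tested genes. The genes were chosen by the same difference, so nothing is read from these counts. The median log2 difference, Avicel minus glucose, was 0.996 for the set and -0.16 for all genes tested. Against a change of 1.5-fold instead of none, limma called 106 of the 149, where 7.35% of all tested genes were called higher. With median-of-ratios scaling between the libraries the median of all genes was -0.01 and that of the set 1.17.

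The libraries of one carbon source agreed closely for these genes, a measure the rule used only through the means and the separation. The difference between the Avicel libraries, as a percentage of their mean, had a median of 2.16% and quartiles of 1.11% and 3.12%. Between the glucose libraries the median was 4.53% and the quartiles 2.12% and 7.39%. A difference above 10% was found for 1 gene on Avicel and for 23 genes on glucose. The other 335 genes of at least 200 FPKM on Avicel had medians of 1.88% on Avicel and 4.68% on glucose, and the difference from the set was not tested.

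The difference between carbon sources exceeded these replicate differences in every gene of the set. It was at least 40.3% of the mean of the carbon sources, a value set by the lower limit of the ratio, with a median of 66.7%. In 132 of the 149 genes it was at least 5 times the larger of the replicate differences. The choice by ratio and separation favours this count, and also the excess in every gene, so nothing is read from either. The gene with the least separation had 621 and 635 FPKM on Avicel and 379 and 442 FPKM on glucose, so that its lower Avicel value was 1.41 times its higher glucose value. The gene with the largest difference between Avicel libraries, 17.7%, had 735 and 878 FPKM there and 384 and 394 FPKM on glucose. The gene with the largest difference between glucose libraries, 25.7%, had 239 and 310 FPKM there and 449 and 452 FPKM on Avicel.

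**Figure D3:**
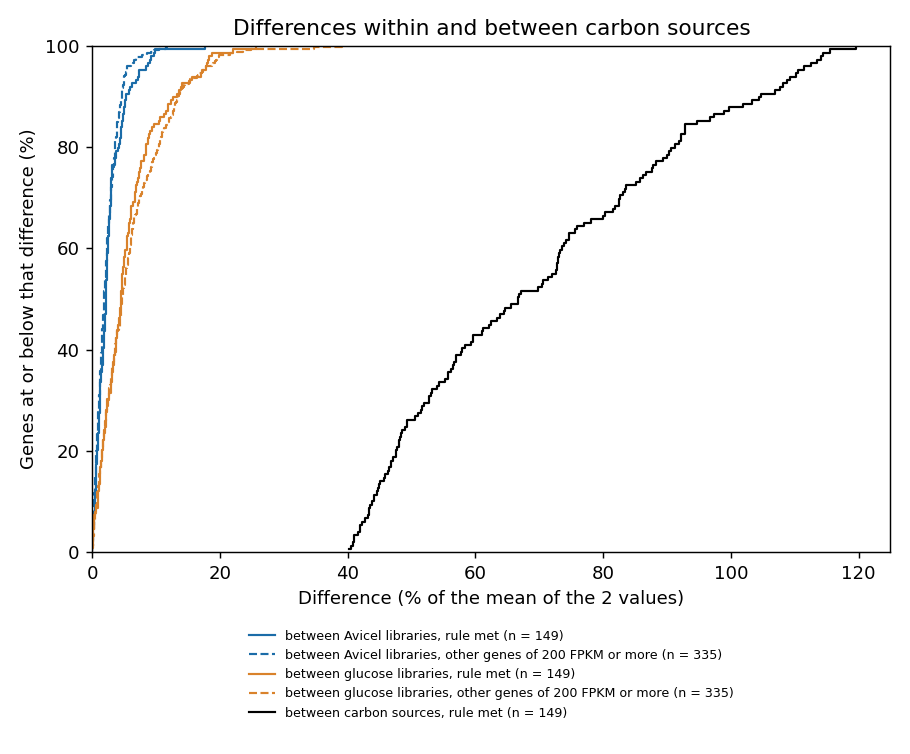
Cumulative share of genes (vertical, percent) by the difference between 2 values as a percentage of their mean (horizontal): between Avicel libraries in blue, between glucose libraries in orange and between the means of the carbon sources in black. Solid lines are the 149 chosen genes and dashed lines the other 335 genes of at least 200 FPKM on Avicel; the black line starts at 40.3%, to the right of both solid replicate lines.

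The second glucose library was more often the higher one. Its value exceeded that of the first in 95 of the 149 genes and fell short in 53, with 1 equal, while the second Avicel library was higher in 69 and lower in 79. Among the other 335 abundant genes the second glucose library was higher in 198. The summed FPKM over all IDs was 541446 and 556312 in the glucose libraries, against 551462 and 553234 on Avicel. With every library rescaled to the same sum (TPM), the log2 difference was 1.41 for c7946_g3 and 1.64 for c2284_g1, against 1.42 and 1.65 as deposited. The part of this difference in scale in the ratios of the other genes was not tested.

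Each gene's ratio was also read in separate pairs of libraries. The log2 ratio of the first Avicel over the first glucose library and that of the second pair had a Pearson correlation of 0.965 and a Spearman correlation of 0.941 across the 149 genes. Genes share the same libraries and were held to a range by the rule, so these values only describe the set. The pairs differed by a median of 0.05 and by at most 0.39 on the log2 scale, and by at most 0.1 for 101 genes. The second pair gave the lower ratio for 97 of the 149 genes. In 12 genes a pair gave a ratio below 1.5, and in 1 gene a ratio of 4 or more.

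**Figure D4:**
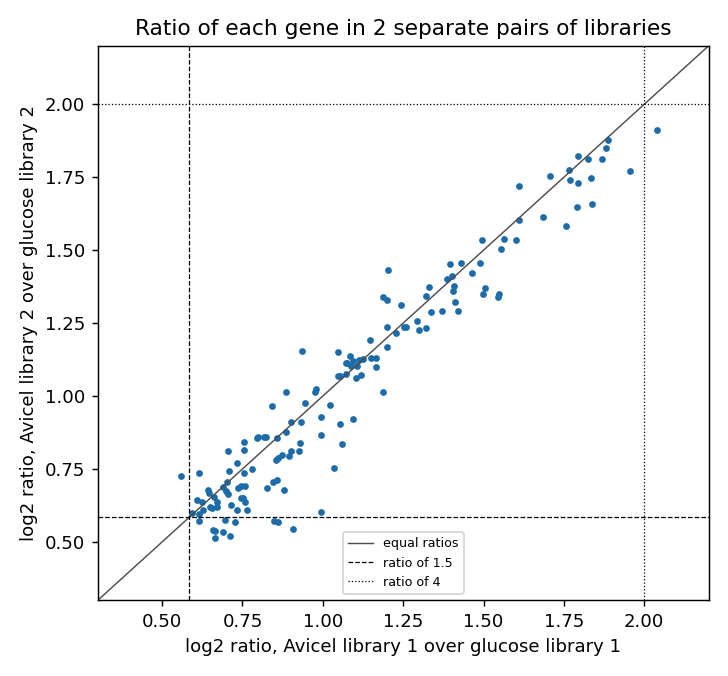
The log2 ratio of Avicel over glucose in the second libraries (vertical) against that in the first libraries (horizontal) for the 149 genes, with dashed and dotted lines at ratios of 1.5 and 4. The genes follow the line of equal ratios, with 97 of 149 below it.

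To read the ratio in libraries that had not chosen the genes, the rule was applied to 1 Avicel and 1 glucose library and the ratio was taken from the others. The first Avicel and first glucose libraries chose 164 genes, whose median ratio was 1.92 there and 1.85 in the held-out libraries. The first Avicel and second glucose libraries chose 140 genes, with medians of 2.03 and 2.12. The second Avicel and first glucose libraries chose 166 genes, with medians of 1.98 and 1.86, and the second libraries of both chose 141 genes, with medians of 2.10 and 2.10. In all 4 choices every chosen gene was higher on Avicel in the held-out libraries, the lowest held-out ratio being 1.29. The libraries of a carbon source may be technical repeats, so the held-out libraries may not be independent of the choosing ones. With an entry ratio of at least 1.5 that outcome was favoured. The held-out ratio stayed from 1.5 to below 4 for 136 of 164, 137 of 140, 137 of 166 and 137 of 141 genes. The 2 choices made with the first glucose library kept the smaller share, 82.9% and 82.5%, and in them 28 and 27 genes had a held-out ratio below 1.5.

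Some IDs share a component number, the first part of the ID, in the form that transcriptome assembly programs give to contigs of one assembly graph; no label states how the IDs were made. The 149 genes carried 147 component numbers, and 11 of them (7.38%) shared theirs with another ID, against 5.998% of all 9704 IDs. In 2 components both IDs belonged to the set. In one of these the IDs had mean levels of 917 and 807 FPKM on Avicel with ratios of 2.09 and 2.07, and in the other 549 and 490 FPKM with ratios of 2.40 and 2.43. The partners in each of these pairs thus differed little in ratio. Reads of one gene split over both IDs and separate genes cannot be told apart here.

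The remaining 7 genes shared their component number with 9 IDs outside the set. These IDs are outside because their own values did not meet the rule, while partners that met it are members, so their counts depend on the choice. Of these 9 IDs, limma called 2 higher and 4 lower on Avicel and 3 neither way, where 23.1% of all tested genes were called higher and 39.5% lower. With median-of-ratios scaling 3 of the 9 were called higher and 3 lower, where 2478 of all genes were called higher and 2357 lower. Nothing is read from these counts. The other 2 IDs of the component of c7946_g3 were expressed at a far lower level. One had 22.4 and 23.5 FPKM on Avicel and 28.0 and 34.5 FPKM on glucose, a log2 difference of -0.42 ± 0.11 (SE; limma adjusted p = 0.0270). This call was lost with median-of-ratios scaling (limma adjusted p = 0.0807), with quantile normalization, without a filter and without either Avicel library (limma adjusted p = 0.0859 without the first and 0.0597 without the second). The other had 17.3 and 16.7 FPKM on Avicel and 26.5 and 32.6 FPKM on glucose, with -0.76 ± 0.11 (SE; limma adjusted p = 0.00429). Both had lower means on Avicel, where c7946_g3 was higher. The partner with the highest ratio, 3.81, had 30.7 and 30.2 FPKM on Avicel and 6.48 and 8.01 FPKM on glucose, beside a gene of the set with a ratio of 2.71. Its log2 difference was 1.94 ± 0.11 (SE; limma adjusted p = 2.52e-04).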

How the data were processed

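Per the file headers the authors deposited FPKM values, rounded to 2 decimals, in 1 table per library with 9704 gene IDs. The submitters' processing notes name RSEM 1.2.15, which estimates transcript abundance, and Bowtie2, an aligner; reference, annotation and read filters: not given in the sources used here. Counts cannot be had from FPKM, which leaves the absolute depth unknown and allows no counting intervals. Relative depth was taken from the most common ratio between 2 libraries, over genes present in both and at 0 FPKM in another. The estimate assumes that such genes mostly had equal read counts in both. The depth was about 94.9%, 78.7% and 98.8% of that of the first Avicel library in the second Avicel, first glucose and second glucose libraries. The members, lists and named genes were chosen with earlier results of these data known. The 2 named IDs are the member with the highest mean on Avicel and the one with the largest gain. The 8261 genes that reached 1 FPKM in 2 or more libraries were fitted as log2(FPKM + 1) with limma 3.58.1 in R 4.3.3 (empirical Bayes with trend, a single term for carbon source, 2.34 prior and 2 residual degrees of freedom, Benjamini-Hochberg adjustment). Such fold changes understate low genes. The fit was also run on simulated data in which far fewer genes changed than were called here. The depth estimate was run on simulated counts with the same mean level in every library. Since these settings differ from the present data, nothing is concluded from them. With 2 libraries a group no exact permutation test can reach 0.05, and none was run. Alternatives were pseudocounts, filters, scalings, a replicate block, left-out libraries and other limits of the rule.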

Additional observations from a re-analysis of the deposited data

How the results depend on the processing

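The 149 genes were called higher on Avicel under each of 12 alternatives to the limma fit: pseudocounts of 0.1 and 10, no filter and a filter of 10 FPKM, the 3 scalings, the replicate block and each library left out. The choice of the genes by this same difference favours that outcome; over all tested genes these alternatives called 1438 to 2478 higher, against 1912. With median-of-ratios scaling 2478 were higher and 2357 lower and with quantile normalization 2340 and 2531, against 1912 and 3259. The test against a 1.5-fold change called 106 of them, and among all tested genes 607 were called higher and 814 lower, because a larger change is required. Of the 9 IDs that share a component number with a gene of the set limma then called 1 higher and 0 lower (2 lower at an unadjusted p below 0.05), against 2 and 4; these alternatives were chosen after seeing the data. With 1 library left out a carbon source has a single library, assumed to vary like the other pair. With the replicate block 1842 genes were called higher, against 1912; same-numbered libraries had deviations with a correlation of -0.001 over tested genes and 0.219 over the 149 genes, and no label states a pairing. The outcome of the rule depended on its level limit and on the scaling. The 149 genes with a share of 17.2% and a median ratio of 1.99 became 269 genes, 20.3% and 1.93 at 100 FPKM. At 400 FPKM the rule gave 80 genes, 13.7% and 1.88. As TPM, which raises every value and so lowers the level limit, it gave 246 genes, 19.7% and 1.93. Median-of-ratios scaling gave 209 genes (144 of the 149 among them), 21.9% and 1.93, and quantile normalization 118 (117 shared), 11.95% and 2.14. Pseudocounts of 0 and 10 gave shares of 17.3% and 17.2%, and with 10 the median ratio was 2.04. Leaving out 1 library gave 140 to 162 genes, shares of 16.3% to 18.6% and median ratios of 1.93 to 2.06. In the libraries that had not chosen the genes the shares were 18.3%, 16.4%, 18.8% and 16.3% and the median ratios 1.85, 2.12, 1.86 and 2.10. The cause of these shifts was not tested beyond what the changed limits and samples impose.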
